A study of Homo sapiens with 18 samples.

Results

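AML1-ETO is the fusion of the DNA-binding part of RUNX1 (AML1) with most of the corepressor RUNX1T1 (ETO), made by the translocation t(8;21) of acute myeloid leukaemia. The regions described here were chosen by width: 398 of the 8731 intervals (4.56%) that the authors listed as occupied by the fusion in both control and miR-130a knockdown cells measured 3000 bp or more. The study profiled Kasumi-1, an established cell line of t(8;21) leukaemia, with CUT&RUN, in which a nuclease tethered to an antibody frees the DNA around bound sites for sequencing. All 6 groups, of 3 libraries each, used a Flag-tagged AML1-ETO Kasumi-1 line, transduced and sorted as viable GFP-positive cells at day 3. The groups were control or miR-130a knockdown, each with anti-ETO, anti-Flag or mouse IgG. The labels name no clone and do not say how the tag was introduced, and nothing states that the replicates were separate cultures.

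The deposited values were positions of called intervals, 1 list per antibody and condition, with no peak height and no value per library. Depth and the spread between the 3 libraries of a group are therefore unknown, no test over samples was possible, and every statement on control against knockdown below is a comparison of 2 lists. The control and knockdown lists held 14264 and 22594 anti-ETO intervals, and 23162 and 25961 anti-Flag intervals. No list of IgG intervals was used here. The cell type could not be checked against expressed markers, since the lists hold positions only.

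As background, AML1-ETO reads the short RUNX core sequence through its RUNX1 part and recruits corepressors and histone deacetylases through its ETO part. It works in a complex with other blood transcription factors, among them the E proteins, LYL1, LMO2 and LDB1, at regulatory elements of myeloid genes. The anti-Flag antibody reads only the tagged protein, and anti-ETO reads the ETO part of the fusion.

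The sequences shown next belong to genes, from the gene lists described below, that had an annotated start inside a broad domain. Each is the reference sequence (RefSeq, GRCh38.p14) of the 250 bases before the start, 5′ to 3′ on the gene's strand, with every CpG in capitals. They are shown because promoters in broad domains were rich in CpG, as were those in narrower shared intervals. GFI1 is a transcriptional repressor of myeloid and stem cells (chr1:92486926-92487175, minus strand). RUNX1 is the gene of the fusion's own DNA-binding part (chr21:34888700-34888949, minus strand). The RUNX1 start used here lies inside the gene, away from its upstream boundary. LYL1 (chr19:13102859-13103108, minus strand) and HHEX (chr10:92689705-92689954, plus strand) are a helix-loop-helix and a homeobox factor of blood progenitors. IGF2BP3 encodes an RNA-binding protein of fetal tissue and tumours (chr7:23470492-23470741, minus strand).
GFI1: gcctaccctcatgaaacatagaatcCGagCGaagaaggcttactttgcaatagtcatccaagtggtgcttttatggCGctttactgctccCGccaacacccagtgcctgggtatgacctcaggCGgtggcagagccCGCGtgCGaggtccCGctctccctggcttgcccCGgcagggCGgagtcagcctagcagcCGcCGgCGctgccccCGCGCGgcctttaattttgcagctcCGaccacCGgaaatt
RUNX1: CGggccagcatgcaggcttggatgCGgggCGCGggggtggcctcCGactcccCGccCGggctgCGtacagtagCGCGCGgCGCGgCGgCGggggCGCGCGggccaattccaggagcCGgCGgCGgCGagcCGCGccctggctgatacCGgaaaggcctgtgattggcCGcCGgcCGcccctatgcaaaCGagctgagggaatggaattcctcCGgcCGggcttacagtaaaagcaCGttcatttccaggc
LYL1: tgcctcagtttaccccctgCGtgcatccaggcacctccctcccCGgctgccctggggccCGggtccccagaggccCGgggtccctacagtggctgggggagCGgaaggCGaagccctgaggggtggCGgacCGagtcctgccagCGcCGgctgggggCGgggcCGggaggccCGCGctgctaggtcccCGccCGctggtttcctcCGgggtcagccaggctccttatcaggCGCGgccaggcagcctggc
HHEX: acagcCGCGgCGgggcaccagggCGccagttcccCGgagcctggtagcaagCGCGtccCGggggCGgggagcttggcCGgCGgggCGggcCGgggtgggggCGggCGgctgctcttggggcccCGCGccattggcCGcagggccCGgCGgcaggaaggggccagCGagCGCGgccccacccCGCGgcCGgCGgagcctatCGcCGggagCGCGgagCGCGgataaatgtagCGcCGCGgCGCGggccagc
IGF2BP3: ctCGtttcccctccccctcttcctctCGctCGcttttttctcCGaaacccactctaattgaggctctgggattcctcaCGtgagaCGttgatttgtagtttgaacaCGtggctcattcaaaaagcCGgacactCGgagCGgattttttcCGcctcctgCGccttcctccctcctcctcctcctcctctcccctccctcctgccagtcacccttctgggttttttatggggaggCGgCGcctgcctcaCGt

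These 250 bases held 19 CpG sites at GFI1, 32 at RUNX1, 19 at LYL1, 38 at HHEX and 15 at IGF2BP3, with a GC content of 61.2%, 71.2%, 75.2%, 81.2% and 56.8%. The GC content at GFI1 and IGF2BP3 was below the median of 62.3% over all promoters. None of the 5 windows held the RUNX core TGTGGT, the GATA motif AGATAA, the ETS motif GAGGAAGT or the E-box CAGCTG on either strand. No match says only that these letters are not in this window. Other forms of the GATA, ETS and E-box motifs were not searched and can be present. Genome sequence of the domains themselves was not used here.

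One broad domain of 5695 bp, chr19:13835207-13840901, held the genes of 3 microRNAs that are made from 1 transcript. Their mature 3p sequences (RefSeq, GRCh38.p14) follow, with the seed, bases 2 to 8, in capitals.
miR-23a-3p: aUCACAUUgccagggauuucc
miR-27a-3p: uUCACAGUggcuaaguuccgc
miR-24-3p: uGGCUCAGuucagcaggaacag
The 3 seeds differ. Another microRNA, the hypoxia-induced miR-210, lay in a domain of 5654 bp, chr11:564997-570650.
miR-210-3p: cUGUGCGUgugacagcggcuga

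The 398 domains covered 1530.1 kb, which was 13.85% of all bases in shared intervals. Their median width was 3517 bp (quartiles 3228.5 to 4070.5, range 3000 to 11036), against 1010 bp for the 8333 narrower shared intervals. Of the domains, 112 measured at least 4000 bp, 39 at least 5000 bp and 13 at least 6000 bp. The threshold cut through a continuous distribution. The 3 members just inside it were 3000 bp wide each and lay at ATXN7L3, a subunit of the SAGA deubiquitinase, at NSD2, a histone methyltransferase, and at chr2:8543192-8546191, which overlapped no coding gene. The 3 intervals just outside it were 2998 bp (METTL23 and the splicing factor SRSF2), 2991 bp (TMED2) and 2986 bp wide (MRTFA).

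A dual-antibody interval was listed for both antibodies in 1 condition, but not every base in it was called by both. In the knockdown dual-antibody interval at chr16:2659937-2663298, of 3362 bp, anti-Flag calls covered 3362 bp and anti-ETO calls 546 bp. In all 398 domains the whole width lay inside dual-antibody intervals, and both outer edges were edges of such intervals. The shared list was made from these intervals, so this describes its construction. A dual-antibody interval of 3000 bp or more was present in both conditions in 139 domains (34.9%), in control only in 38 (9.55%), in knockdown only in 165 (41.5%) and in neither in 56 (14.1%). The last class reached 3000 bp only when overlapping intervals of both conditions were joined. In single-antibody lists, 1 call of 3000 bp or more was found in 54 domains for control anti-ETO, 141 for control anti-Flag, 232 for knockdown anti-ETO and 99 for knockdown anti-Flag. In 20 domains all 4 lists held such a call, and in 101 none did.

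Each of the 398 domains had at least 1 call in each of the 4 single-antibody lists. The shared list was made from these 4 lists, so this too describes its construction. The called length per domain had a median of 2504 bp in control anti-ETO, 3085.5 bp in control anti-Flag, 3260.5 bp in knockdown anti-ETO and 3017.5 bp in knockdown anti-Flag. Knockdown anti-ETO calls filled a median of 93.2% of a domain and were a single unbroken call in 263 domains. Control anti-ETO calls filled 69.6% and were unbroken in 184 domains. The bases called in all 4 lists made up a median of 58.6% of a broad domain and 46.9% of a narrower interval.

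**Figure D1:**
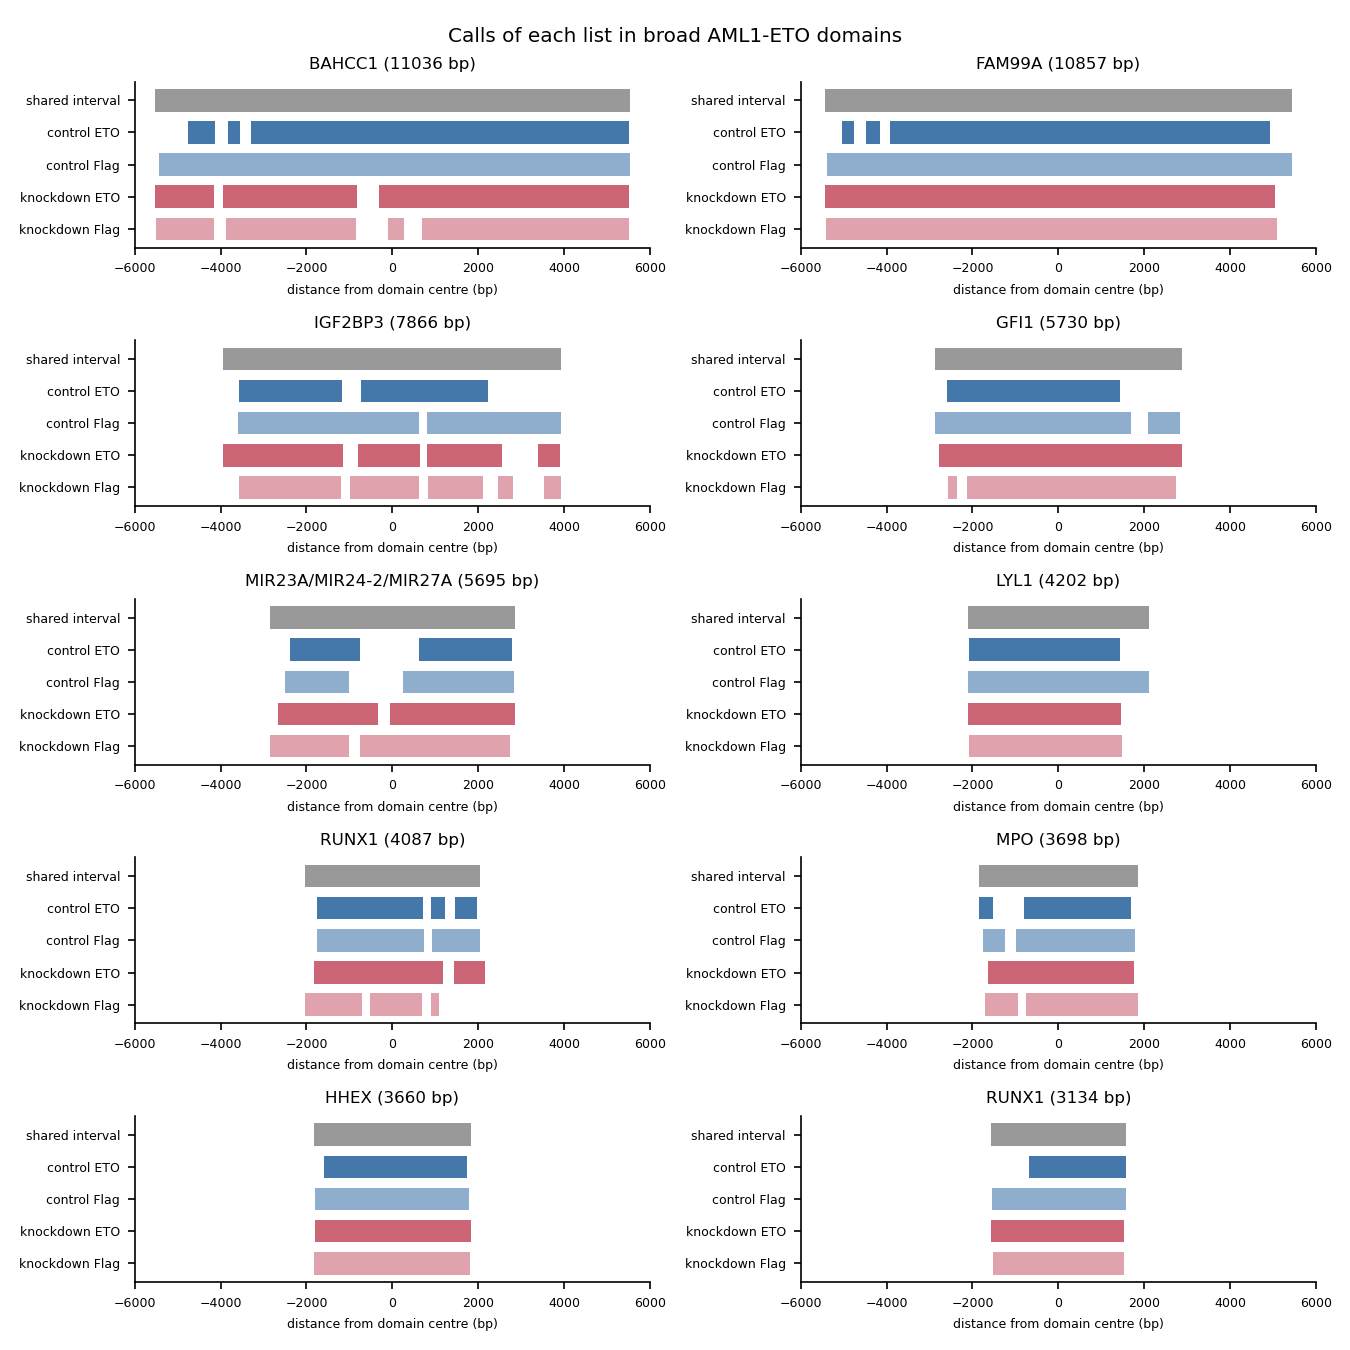
Calls of the 4 single-antibody lists in 10 broad domains. Each panel is 1 domain, the x axis is the distance from its centre in bp, the grey bar is the shared interval, and coloured bars are the calls in control (blue) and knockdown (red) with anti-ETO (dark) or anti-Flag (light). The HHEX and LYL1 domains have 1 call in every list, while the IGF2BP3 domain is split into 13 calls.

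Of the 10 widest domains, 7 overlapped a coding gene, 1 overlapped only a lncRNA gene and 2 overlapped no gene. The widest of all, 11036 bp at chr17:81419878-81430913, lay inside BAHCC1, which encodes a chromatin protein that reads methylated histone H3. Control anti-ETO covered 9689 bp of it and control anti-Flag 10957 bp, and knockdown anti-ETO covered 10321 bp and knockdown anti-Flag 9569 bp. All 4 lists thus covered most of this domain. BAHCC1 held 5 further broad domains of 6528, 3306, 3205, 3177 and 3077 bp. With an interval at the lncRNA LINC01971 and one at FSCN2 they formed a run of 8 broad domains over 116805 bp, the largest group when domains within 50 kb of each other were joined. In the 3 narrowest BAHCC1 domains, control anti-ETO covered 1400, 929 and 1241 bp and knockdown anti-ETO 3156, 2554 and 2637 bp. Control anti-Flag covered 2623, 2623 and 2447 bp of these 3, and knockdown anti-Flag 2956, 2897 and 3077 bp.

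The second widest domain, 10857 bp at chr11:1666740-1677596, overlapped the lncRNA gene FAM99A and no coding gene, and was the most evenly called of the 10 widest, with 87.1% of its bases in all 4 lists. The third, 7866 bp, spanned the annotated start of IGF2BP3. It was covered over 5340 bp in control anti-ETO, 6485 bp in knockdown anti-ETO, 7327 bp in control anti-Flag and 5992 bp in knockdown anti-Flag. The antibodies thus differed in which condition had the longer calls. A domain of 6937 bp held the starts of NFKBID, a nuclear inhibitor of NF-κB, and HCST, and overlapped TYROBP. HCST and TYROBP are signalling adaptors of natural killer and myeloid receptors. A domain of 6904 bp overlapped JUNB, an AP-1 subunit, and HOOK2, which binds microtubules. In it, anti-ETO covered 5717 bp in control and 6627 bp in knockdown, and anti-Flag covered 6291 and 5661 bp.

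The other 4 among the 10 widest were 7103 bp at KLF10, a TGF-beta-induced zinc finger factor, 6866 bp at chr3:198099861-198106726 with no gene overlapped (nearest coding gene LMLN), 6754 bp over CDHR4, INKA1 and the ubiquitin-like activating enzyme UBA7, and 6658 bp at chr11:65416083-65422740. The last overlapped no annotated gene, and its edge lay 58 bp from NEAT1, the architectural lncRNA of paraspeckles. Here anti-ETO covered 5647 bp in control and 6283 bp in knockdown, and anti-Flag 5716 and 5461 bp. In these 4 domains, as in the 6 above, knockdown anti-ETO covered more bases than control anti-ETO.

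The first list held 20 genes of the fusion, its complex, the ETO family and other blood transcription factors. Of these, 5 had a broad domain: RUNX1, CBFA2T3, LMO2, LYL1 and HHEX. The lists were chosen with results of these data known, and no test was made on them. Over all 11 lists, 19 of 194 genes had a broad domain (9.79%), beside 2.1% of the 19974 protein-coding genes of the reference. The 194 include microRNA genes, and 3 of the 19 shared 1 domain. Among the 176 protein-coding genes listed, 16 had a broad domain (9.09%). Longer genes have more room to overlap an interval, and length was not matched.

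RUNX1 had a domain at chr21:34887393-34891479 (4087 bp) that held an annotated start inside the gene. Its right edge lay 157.8 kb from the gene's upstream boundary at chr21:35049302 (minus strand). Another domain, chr21:35025391-35028524 (3134 bp), lay 20.8 kb inside that upstream boundary. In the first, anti-ETO covered 3323 bp in control and 3605 bp in knockdown, and anti-Flag 3603 and 2728 bp. In the other, anti-ETO covered 2257 and 3083 bp, and anti-Flag 3104 and 3045 bp. Both RUNX1 domains thus had more anti-ETO and fewer anti-Flag bases in knockdown. In the domain of 3134 bp the anti-Flag difference, knockdown minus control, was only -59 bp. The antibodies do not read the RUNX1 part itself.

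LYL1 had a domain of 4202 bp across its start (chr19:13102324-13106525), called as 1 interval in each list. Control anti-Flag covered all 4202 bp, and the other 3 lists covered 3525 to 3555 bp. LMO2, the adaptor that joins LYL1 to LDB1, had a domain of 3531 bp across a gene boundary (chr11:33891565-33895095), with 3181 to 3508 bp covered in the 4 lists. The HHEX domain, 3660 bp at chr10:92688718-92692377, was also 1 call in each list, with 3320 bp in control anti-ETO and 3587 to 3640 bp in the others. In the LYL1, LMO2 and HHEX domains 83.6%, 85.1% and 90.7% of the bases were in all 4 lists, above the median of 58.6%. CBFA2T3, which encodes another ETO family corepressor, had a domain of 3216 bp across a gene boundary, and 8 narrower shared intervals besides.

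Of 21 myeloid transcription factors, 2 had a broad domain. The GFI1 domain (chr1:92483249-92488978, 5730 bp) held 4038 bp of control and 5652 bp of knockdown anti-ETO calls, and 5305 and 5066 bp of anti-Flag calls. CEBPG, a basic leucine zipper factor, had a domain of 3186 bp across its start. CEBPA and SPI1, the master regulators of granulocytes and monocytes, had narrower shared intervals but no broad one. Of 14 corepressor genes, SIN3A, the scaffold of a histone deacetylase complex, had a broad domain (4670 bp across its start), with 3331 and 4351 bp of anti-ETO calls in control and knockdown and 3512 and 3344 bp of anti-Flag calls.

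Among 16 granule protein genes, MPO, the myeloperoxidase of early granulocytes, had a broad domain of 3698 bp across a gene boundary (chr17:58279527-58283224). Anti-ETO covered 2807 bp of it in control and 3414 bp in knockdown, and anti-Flag 3272 and 3364 bp. MPO was thus covered more in knockdown by both antibodies, though the anti-Flag difference was only 92 bp. Among 18 surface receptor and adhesion genes SPN (CD43, a sialoglycoprotein of leukocytes) had a domain of 3557 bp. Among 22 signalling genes VAV1, the exchange factor of blood cells, had 4367 bp and NOTCH1 3018 bp, both inside the gene body. Among 16 cell cycle and survival genes BCL2L11, which encodes the cell death activator BIM, had 3384 bp across its start, and CDKN2D, a CDK inhibitor, 3022 bp. In the BCL2L11 domain anti-Flag covered 3150 bp in control and 2113 bp in knockdown, while anti-ETO covered 3013 and 3353 bp. IGF2BP3 and BAHCC1 were 2 of 8 listed oncofetal and chromatin genes.

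Of 18 microRNA and host genes, MIR23A, MIR27A and MIR24-2 had a broad domain, the 1 whose sequences are shown above. It was covered by 3800 bp of control and 5252 bp of knockdown anti-ETO calls, and by 4096 and 5334 bp of anti-Flag calls. Control calls of both antibodies left a gap in the middle of this domain that knockdown calls narrowed. The MIR210 domain was covered by 2127 and 5476 bp with anti-ETO and by 4561 and 5654 bp with anti-Flag. Over all microRNA genes of the reference, 14 of 1911 (0.733%) were overlapped by a broad domain, in 12 domains. None of 21 HOX genes and none of 20 erythroid and lymphoid marker genes had a broad domain, beside 1 and 2 genes of these lists with a narrower shared interval. At the 2.1% of all coding genes, lists of this size would hold fewer than 1 such gene, so the counts of 0 are near the background.

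Knockdown lists covered more bases of the broad domains than control lists for anti-ETO but not for anti-Flag. These lengths are made of the same calls as the widths that defined the members, so they are given as a description. Knockdown anti-ETO covered more bases in 384 of 398 domains (96.5%), against a background of 81.2% over all shared intervals. The median difference, knockdown minus control, was 830 bp, and the ratio of summed bases was 1.36 (1.33 in narrower intervals). Anti-Flag covered more bases in knockdown in 174 domains (43.7%) and in control in 222, against 30.1% over all shared intervals, with a median difference of -65.5 bp. The anti-Flag direction differed by chromosome. Knockdown anti-Flag covered more in 102 of 177 broad domains on chromosomes 8, 11, 17 and 19 (57.6%) and in 72 of 221 elsewhere (32.6%). In narrower intervals these shares were 36.8% and 26.3%. For dual-antibody intervals, knockdown covered more in 302 domains (75.9%), against 61.3%, with a median difference of 320.5 bp. The knockdown anti-ETO list was also longer over the whole genome, and the part of list length in these differences was not tested.

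**Figure D2:**
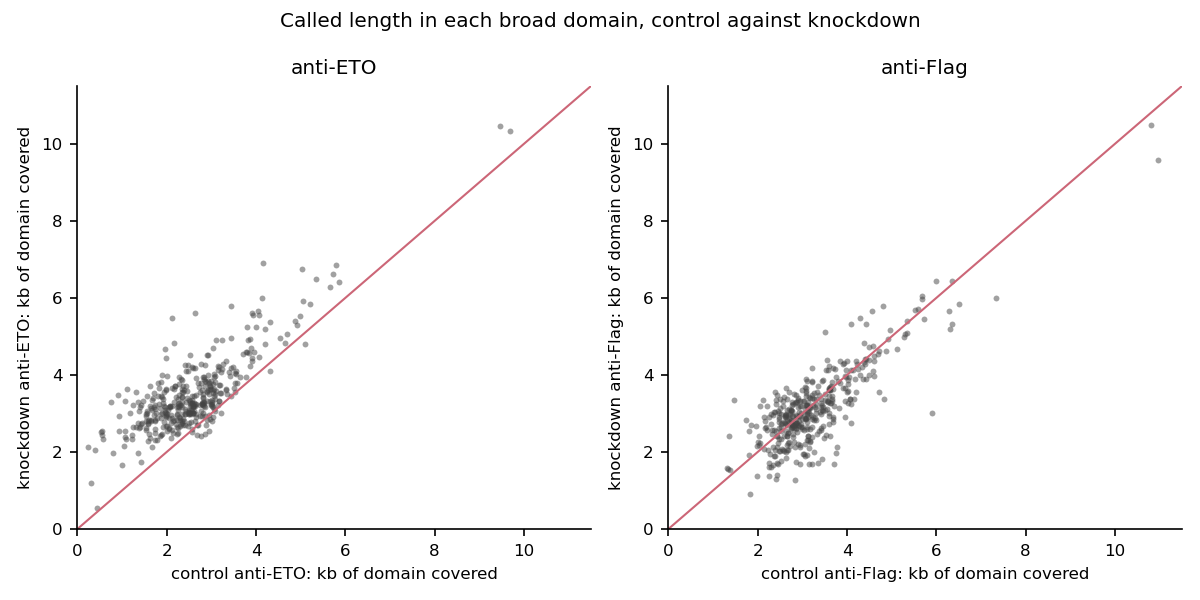
Called length in each of the 398 broad domains in control (x axis, kb) against knockdown (y axis, kb), for anti-ETO (left) and anti-Flag (right). Each point is 1 domain and the line marks equal lengths, with 384 points above it for anti-ETO and 174 for anti-Flag.

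Some domains ran against this direction. The PTCH1 domain (5968 bp, the Hedgehog receptor) had 5913 bp of dual-antibody intervals in control and 4274 bp in knockdown, the most lost of all. Its anti-Flag calls covered 5913 bp in control and 3012 bp in knockdown, while anti-ETO covered 5089 and 4795 bp. CELF2, an RNA-binding protein gene, followed with 3776 and 2656 bp of dual-antibody intervals, then ANTXR2 (3178 and 2163 bp), TBC1D10C (3351 and 2350 bp) and RPTOR, the mTORC1 scaffold (2987 and 2007 bp). In all 5, anti-Flag calls were shorter in knockdown. Anti-ETO calls were shorter at PTCH1, ANTXR2 and RPTOR and longer at CELF2 and TBC1D10C.

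The domains with the most gained length were mostly thinly called by anti-ETO in control. At chr8:143666997-143672465 dual-antibody intervals covered 1233 bp in control and 5469 bp in knockdown, and anti-ETO 750 and 3305 bp. At SSH3, a cofilin phosphatase gene, they covered 855 and 3645 bp, with 238 bp of control anti-ETO calls, the least of any broad domain. Near NOTUM, which encodes an inhibitor of Wnt, they covered 923 and 3376 bp. At LBHD1, C11orf98 and CSKMT they covered 1390 and 3598 bp, and at SPEN, an RNA-binding corepressor, 1709 and 3880 bp. SPEN was also the domain split into most calls, 17 over the 4 lists. Next were KLF10 with 15, BAHCC1 (the domain of 6528 bp) and MDC1 with TUBB at 14 each, and then IGF2BP3, GATAD2B and the domain beside NEAT1, tied at 13.

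Broad domains more often had knockdown-unique intervals beside them than narrower intervals did. A knockdown-unique interval was listed for both antibodies in knockdown and absent from the authors' control list. Such an interval lay within 10 kb outside the edges of 241 of 398 broad domains (60.6%, 95% Wilson interval 55.7 to 65.2). The same held for 2975 of 8333 narrower intervals (35.7%, 34.7 to 36.7). The background over all shared intervals was 36.8%. The difference was 24.9 percentage points (odds ratio 2.76, two-sided Fisher's exact test on intervals, adjusted p = 2.99e-22 by Benjamini-Hochberg over 3 tests). Without chromosomes 8, 11, 17 and 19 the shares were 47.1% and 29.4%, and on those chromosomes 77.4% and 50.3%. The test compares intervals, not libraries. Neighbouring domains share flanks, and the unique lists come from the same calls as the shared list. Of the domains, 165 held a dual-antibody interval of 3000 bp or more in knockdown only and 38 in control only. Members thus reached the width more often through knockdown calls, so the p-value is no independent support for a link to knockdown. The part of this selection in the difference was not tested. The knockdown-unique list was the longer one, with 4617 against 3059 intervals.

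Control-unique intervals lay within 10 kb of 34 broad domains (8.54%, 6.18 to 11.7) and of 1089 narrower intervals (13.1%, 12.4 to 13.8), against 12.9% overall. The difference was -4.53 percentage points (adjusted p = 0.0108 by Fisher's exact test and Benjamini-Hochberg over 3 tests). It did not hold against narrower intervals of 1500 to under 3000 bp, where it was -1.65 points (p = 0.360, Fisher's exact test). The selection of members through knockdown calls applies to control-unique neighbours too. The adjusted p-value is therefore no independent support for fewer of them, and the part of the selection was not tested. Across widths, the share with a knockdown-unique neighbour was 33.0% under 1000 bp, 36.6% at 1000 to under 2000 bp, 44.8% at 2000 to under 3000 bp, 57.0% at 3000 to under 4000 bp and 69.6% from 4000 bp. The share with a control-unique neighbour was 15.2% in the narrowest class and 8.04% in the widest.

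**Figure D3:**
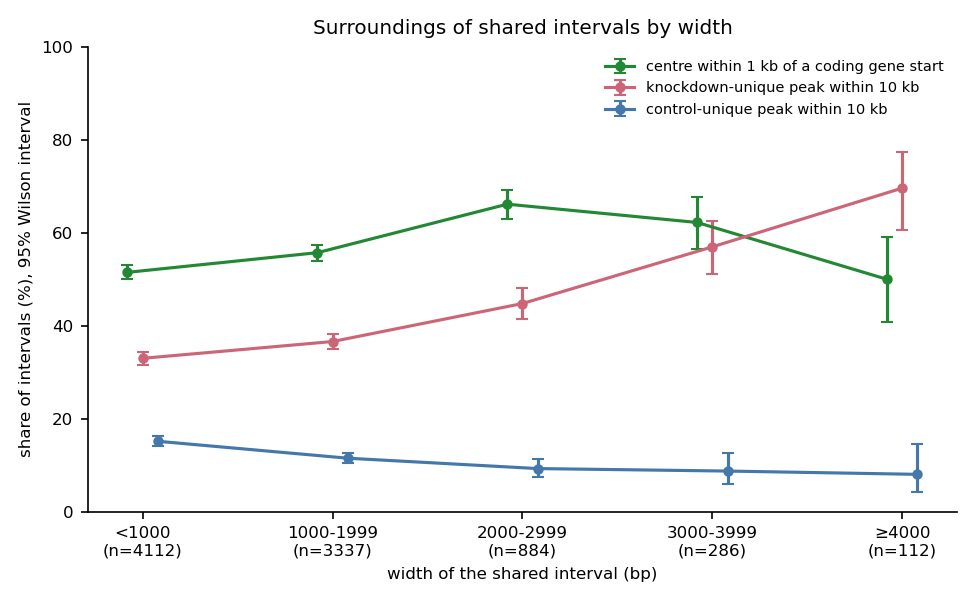
Share of shared intervals (y axis, percent) in 5 width classes (x axis, bp, with the number of intervals) that have a knockdown-unique peak within 10 kb, a control-unique peak within 10 kb, or a centre within 1 kb of a coding gene start. Where no start was listed, either gene boundary counted as a start. Points are shares and bars 95% Wilson intervals. The knockdown-unique share runs from 33.0% to 69.6% across the classes.

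Broad domains were unevenly spread over the chromosomes. Chromosome 17 held 59 of them (14.8%, beside 8.81% of narrower intervals) and chromosome 8 held 32 (8.04%, beside 3.31%). Chromosome 11 held 37 (9.30%, beside 6.44%). Chromosome 19 held 49, a share near that of narrower intervals (12.3% and 11.6%), and chromosome 1 held 32, a lower share (8.04% and 10.4%). Joining domains within 50 kb gave 307 groups, and 49 of these held more than 1 domain and 140 domains in all. After the BAHCC1 run, the largest were 7 domains at chr11:64184518-64271217 around STIP1, FERMT3 (the integrin activator kindlin-3) and PLCB3, and 7 domains in each of 2 runs on chromosome 8. Another held 5 domains at chr19:13094902-13165682 with NFIX, LYL1, TRMT1 and IER2. The other run of 5, chr6:31558092-31667092, had domains across the starts of LST1 and AIF1, both expressed in monocytes. Copy number of these regions in Kasumi-1 was not measured here, and its part in the chromosome counts was not tested.

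Most broad domains were centred near a coding gene start or boundary, as were most narrower intervals. A centre lay within 1 kb of a coding gene start (or a gene boundary where no start was listed) in 234 domains (58.8%, 53.9 to 63.5) and in 4563 narrower intervals (54.8%, 53.7 to 55.8), against 54.9% overall. The difference of 4.04 percentage points did not pass the test (adjusted p = 0.122, two-sided Fisher's exact test with Benjamini-Hochberg over 3 tests), and it changed sign with the distance used: -0.125 points within 500 bp and 10.7 points within 2500 bp. Among the widest class, from 4000 bp, the share was 50%. Where no start was listed, as on all of chromosome 8, either gene boundary counted. With listed starts only, off chromosome 8, the shares were 50.3% of broad domains and 47.8% of narrower intervals. Outside chromosome 8, 223 of 366 broad domains held a listed coding gene start (60.9%), and 34 held starts of more than 1 gene (9.29%). Of the narrower intervals, 33.8% and 3.21% did. Such counts grow with width. In all, 341 domains overlapped a coding gene, 93 overlapped several, and 17 overlapped no gene of any type.

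**Figure D4:**
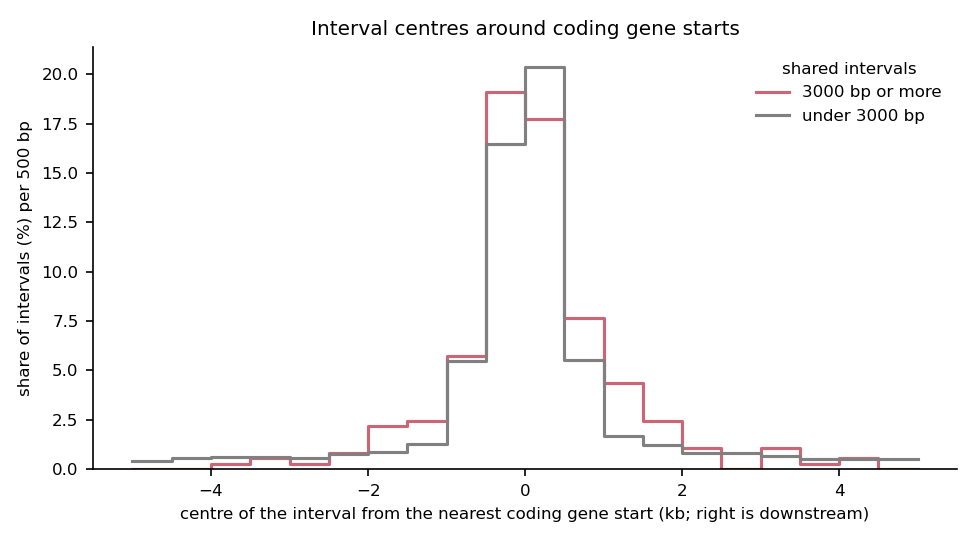
Distance of interval centres from the nearest listed coding gene start (x axis, kb, downstream to the right) for broad and narrower shared intervals off chromosome 8, as percent of intervals per 500 bp (y axis). In the bins next to the start, broad domains reach 19.1% upstream and 17.8% downstream, and narrower intervals 16.5% and 20.4%.

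Promoters in broad domains were rich in GC and CpG. The 353 RefSeq promoters (300 bases each, 250 before and 50 after the start) of the 257 genes with a start in a broad domain had a median GC content of 70%, against 62.3% over all 22132 promoters and 69.3% for starts in shared intervals of 2000 to under 3000 bp. The observed-to-expected CpG ratio was 0.873, against 0.738 over all and 0.867 at 2000 to under 3000 bp. For starts in shared intervals under 1000 bp the median GC content was 67% and the CpG ratio 0.843. The RUNX core TGTGGT, on either strand, was in 43 of the 353 (12.2%, 9.17 to 16.0), beside 11.3% of all promoters. The ETS motif GAGGAAGT was in 5.10% (3.25 to 7.92), beside 2.63% of all and 2.10% at 2000 to under 3000 bp. The GATA motif AGATAA was in 3.97%, beside 7.88% of all, and the E-box CAGCTG in 18.1%, beside 18.0%. These are matches of letters, promoters of 1 gene share sequence, and none of the shares was tested.

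Broad domains also held transfer RNA genes, 20 of 443 (4.51%) in 9 domains, beside 13.3% of tRNA genes in any shared interval. On chromosome 1, 3 domains at chr1:161444566-161448366, chr1:161451304-161455756 and chr1:161466121-161470512 each held 1 copy of the same trio, numbered genes for glutamate (TRE-CTC1), glycine (TRG-TCC2) and aspartate (TRD-GTC2) tRNA. They were 3801, 4453 and 4392 bp wide. Anti-ETO covered 3178, 2477 and 2573 bp of them in control and 3738, 4250 and 4208 bp in knockdown, and anti-Flag covered 3620, 4134 and 3950 bp and 3622, 4137 and 3976 bp. The anti-Flag lengths of these 3 domains differed between conditions by 2 to 26 bp. Reads from near-identical copies may not be told apart, and the handling of such reads is not given in the sources used here, so calls at these copies are uncertain.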

How the data were processed

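CUT&RUN intervals of 18 libraries in 6 groups were used as 9 lists of positions (chromosome, start, end), as deposited by the authors, with no score or header. The submitters' processing notes name fastp 0.19.5, Bowtie2 2.3.5, MACS2 2.2.5 and HOMER 4.8 and the builds hg38 and sacCer3. They give no role, threshold, use of IgG or handling of replicates. Fragments of 150 to 400 bp and about 40 M reads of 75 bp per library were planned, per the labels' protocols. Depth is unknown. Interval width can depend on the calling threshold and on depth, which were not varied here.

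Members are shared intervals of 3000 bp or more. Called bases per list were counted inside each domain with Python 3.11.15, numpy 2.4.6, pandas 2.3.3 and scipy 1.17.1, with overlap of at least 1 bp. Positions are counted from 1. Genes, promoters and microRNAs came from RefSeq tables of GRCh38.p14. The promoter table holds 15812 of 19974 coding genes (79.2%), so shares of promoters rest on those. Shares of broad and narrower intervals were compared with Fisher's exact test, adjusted over 3 tests. Intervals on shares cover counting error only. On simulated lists of 400 planted domains and on small made-up inputs, 8 of 8 checks returned the planted answer.

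The members and lists were chosen with earlier results of these data known. Named domains are the 10 widest, the 5 with most calls, the 5 with most length gained and the 5 with most lost, those at listed genes, and 3 on each side of the threshold. Others, such as the tRNA, MIR210, GATAD2B and clustered domains, were chosen after their values were seen. Alternatives were other widths, distances, comparison sets and ways of counting.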

Additional observations from a re-analysis of the deposited data

How the results depend on the processing

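The number of domains depended on the width threshold, with 706 at 2500 bp and 112 at 4000 bp. The difference in centres near a coding gene start or boundary was 4.04 percentage points. It reversed to -0.125 within 500 bp and to -3.26 against intervals of 1500 to under 3000 bp. At a threshold of 4000 bp it reversed to -5.01. It passed the unadjusted test within 2500 bp (10.7, p = 1.21e-05, Fisher's exact test). It also passed with the widest domain of each group within 50 kb (7.13, p = 0.0141, Fisher's exact test). The difference for control-unique neighbours (-4.53) no longer passed against intervals of 1500 to under 3000 bp (-1.65, exact p = 0.360), without chromosomes 8, 11, 17 and 19 (-4.51, p = 0.0520) or with the widest domain of each group (-3.30, p = 0.0997). The cause of these changes was not tested. The difference for knockdown-unique neighbours (24.9) kept its direction and passed in all 5 alternatives run for it, from 17.7 to 21.1 points. None of these alternatives left out the domains that reached 3000 bp through knockdown calls only. The widest-per-group, chromosome and 1500 to under 3000 bp neighbour alternatives, the start-table alternatives and the 100 bp minimum for single antibodies were chosen after seeing the data. With 1 list per group, no replicate could be left out, and the depth of a call is unknown. No paired analysis was possible because the deposited lists carry no value or column for any replicate.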

Other observations

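BCOR, the X-linked gene of a Polycomb-associated corepressor, had 3 broad domains within 82612 bp (it was in no list and was noticed after the values were seen). They measured 5530, 4524 and 3380 bp, and the domain of 4524 bp held the gene's annotated start. Anti-ETO covered 4992, 3581 and 2580 bp of them in control and 5530, 3779 and 3188 bp in knockdown. Anti-Flag covered 4821, 3501 and 2737 bp in control and 3375, 3501 and 2610 bp in knockdown. Anti-ETO calls were thus longer in knockdown in all 3 BCOR domains, and anti-Flag calls were equal in 1 and shorter in 2.

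The knockdown-unique list itself held 10 intervals of 3000 bp or more, and the widest measured 7112 bp. The control-unique list held 0, with a widest interval of 2829 bp. The share of broad domains with a knockdown-unique neighbour was 66.2% (95% Wilson interval 58.0 to 73.5) where both conditions had a dual-antibody interval of 3000 bp, 61.8% (54.2 to 68.9) where only knockdown had one, 47.4% (32.5 to 62.7) where only control had one and 51.8% (39.0 to 64.3) where neither had one. These intervals overlap, and the differences between the classes were not tested.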
